A study of Mus musculus with 2 samples.

Results

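The genes considered here were *En1*, *En2*, *Gbx1*, *Gbx2*, *Egr2* and *Phox2a*, which mark the midbrain, the hindbrain and the boundary between them in the embryo. They were taken by symbol, with no threshold on a measured value, and are 6 of the 29311 genes that the tables list. All 6 were listed and all 6 had a value above 0 in both samples. Of all listed genes, 26646 had a value above 0 in ES cells and 27009 in forebrain, so that this does not stand out. RNA-seq had been performed on wild-type ES cells of the E14 strain and on wild-type forebrain cells at E10.5 from B6CBAF1/J embryos, with 1 sample each and no replicates. The ES cells are a single line, grown without feeders in serum with LIF, a cytokine that sustains self-renewal. The methods state that forebrain RNA came from single embryos. Strain, RNA reagent (Trizol or Trizol LS) and cell type differ together between the samples and cannot be told apart. In bulk RNA, fewer cells that express a gene and less RNA per cell cannot be told apart either.

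The vertebrate brain is divided early along its rostral to caudal axis. *Otx2* is expressed rostrally and *Gbx2* caudally, and the isthmic organizer forms where both domains meet and secretes FGF8 and WNT1. *En1* and *En2* encode Engrailed homeodomain repressors of the midbrain and anterior hindbrain. *Gbx1* and *Gbx2* encode homeodomain proteins of the Gastrulation brain homeobox family, and *Gbx2* is also known as a target of LIF and STAT3 signaling in ES cells. *Egr2* (Krox20) encodes a zinc finger factor of the third and the fifth rhombomeres, the segments of the hindbrain. *Phox2a* encodes a homeodomain factor of cranial motor and noradrenergic neurons.

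*Gbx2*, higher in ES cells, and *En1*, higher in forebrain, were the 2 members past a 2-fold difference, and their promoters are shown for this reason. Both are the 250 bases upstream of the RefSeq start in GRCm38.p6, with CpG dinucleotides in capitals, at chr1:89931177-89931426 on the minus strand for *Gbx2* and at chr1:120602237-120602486 on the plus strand for *En1*.

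Gbx2: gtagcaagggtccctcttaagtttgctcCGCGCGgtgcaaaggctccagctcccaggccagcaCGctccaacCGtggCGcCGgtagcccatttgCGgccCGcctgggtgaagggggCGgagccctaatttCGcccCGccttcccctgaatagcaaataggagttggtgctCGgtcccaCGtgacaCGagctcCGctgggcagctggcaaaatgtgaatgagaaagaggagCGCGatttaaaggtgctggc

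En1: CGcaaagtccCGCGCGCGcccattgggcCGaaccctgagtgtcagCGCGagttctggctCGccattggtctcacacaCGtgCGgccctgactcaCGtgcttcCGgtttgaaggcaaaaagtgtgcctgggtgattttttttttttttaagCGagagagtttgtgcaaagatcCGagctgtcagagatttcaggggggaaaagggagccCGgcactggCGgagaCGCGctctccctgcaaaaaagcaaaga

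These stretches hold 18 CpG in *Gbx2* and 19 CpG in *En1*. In the whole windows of 300 bases, which extend 50 bases past the start, *Gbx2* had 27 CpG, *En1* 23 and *Phox2a* 30, compared with a median of 7 over the 32851 promoters of the RefSeq table. A count as high was found in 15.5%, 21.5% and 11.7% of these promoters, respectively. *Egr2* has 5 promoters in the table, with 16 to 32 CpG. *En2* and *Gbx1* are not in that table. All promoters of the 4 matched genes thus lay above this median. On both strands, CCAAT was found in the windows of *En1*, *Phox2a* and some of *Egr2*, and GGGCGG in those of *Gbx2*, *Phox2a* and the other windows of *Egr2*. These letters occur in 37.4% and 35.7% of all promoters of the table. TATAAA (13.6% of all promoters), TTCNNNGAA (8.3%) and TAATTA (5.29%) were found in none of the windows of the 4 genes, which says nothing about the factors that bind such letters.

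Levels are given as the deposited value per gene, called RPKM by the authors. Multiplied by exonic length in kb, low values clustered at steps of 1.221 (ES cells) and 0.8192 (forebrain), and 1 such step was taken as 1 read. Summed over genes, the inferred reads came to 42766641 for ES cells and 59773800 for forebrain. Reads on bases that genes share may enter these sums more than once, so that the sums are not a measure of library depth. RPKM recomputed with these sums as totals would be 52.2-fold and 49.0-fold lower than the deposited values. Intervals below are exact Poisson 95% intervals on inferred reads, or exact (Clopper-Pearson) intervals for ratios. They cover counting error only and not variation between embryos or cultures. Depending on exonic length, 3 reads were worth between 0.735 and 1.79 RPKM (ES cells) or between 0.493 and 1.20 RPKM (forebrain) for these genes.

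*Gbx2* had the highest level of these genes in ES cells and was among the lowest in forebrain. Its RPKM was 459.98 in ES cells (interval 437.7 to 483.1, 1597 reads) and 8.98 in E10.5 forebrain (6.51 to 11.9, 46 reads). The level in ES cells was 51.2-fold that in forebrain (38.6 to 71.0), a log2 ratio of forebrain over ES cells of -5.53 on log2(RPKM + 1). *Gbx2* lay at percentile 77.2 of the listed genes in ES cells and at percentile 31.5 in forebrain. The gene (ENSMUSG00000034486) lies on chromosome 1, 91824537 to 91829865 in NCBIM37, on the minus strand, with 4240 exonic bases in 2 blocks.

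*Gbx1*, its paralog, had nearly the same value in both samples. The RPKM was 8.26 in ES cells (5.29 to 12.3, 24 reads) and 8.08 in forebrain (5.63 to 11.2, 35 reads), a ratio of forebrain over ES cells of 0.978 (0.566 to 1.72). The interval of this ratio includes differences in both directions. *Gbx2* made up 98.2% of the summed RPKM of the pair in ES cells (97.4 to 98.9%) and 52.6% in forebrain (41.0 to 63.8%). The pair was thus 55.7-fold apart in ES cells and within counting error in forebrain. *Gbx1* (ENSMUSG00000067724) lies on chromosome 5, 24008575 to 24033094, on the minus strand.

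**Figure D1:**
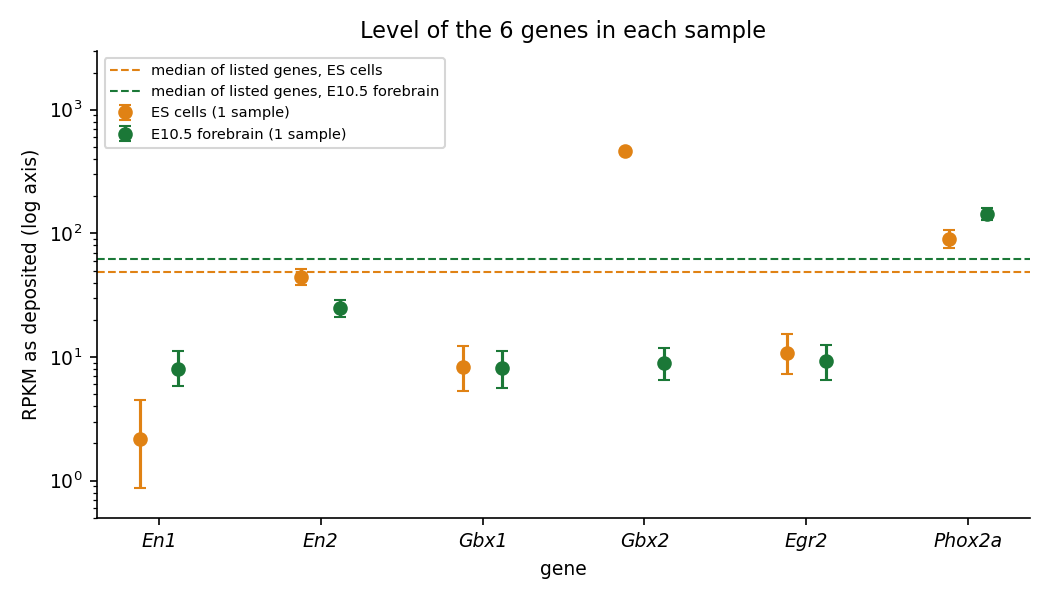
RPKM as deposited (log axis) of the 6 genes in ES cells (orange) and E10.5 forebrain (green), 1 sample each. Bars are exact Poisson 95% intervals on inferred reads and dashed lines the median of the listed genes. *Gbx2* lies at 459.98 in ES cells and at 8.98 in forebrain, where *En1*, *Gbx1*, *Gbx2* and *Egr2* all lie between 8.03 and 9.24.

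*En1* was the only member past 2-fold in the direction of forebrain, from low values. Its RPKM was 2.18 in ES cells (0.875 to 4.48, 7 reads) and 8.03 in forebrain (5.78 to 11.1, 39 reads). The linear ratio of forebrain over ES cells was 3.68 (1.65 to 9.90), and the log2 ratio on log2(RPKM + 1) was 1.51. With a pseudocount of 5 the log2 ratio was 0.86, which is no longer past 2-fold. *En1* had the lowest value of the 6 genes in both samples, at percentiles 21.1 and 30.6 of the listed genes. It lies on chromosome 1, 122498995 to 122505873, on the plus strand (ENSMUSG00000058665).

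*En2* was the more abundant Engrailed transcript in both samples and had its higher value in ES cells. The RPKM was 44.35 in ES cells (38.1 to 51.3, 181 reads) and 24.74 in forebrain (20.9 to 28.9, 150 reads). The level in ES cells was 1.79-fold that in forebrain (1.44 to 2.25), short of 2-fold. *En2* therefore exceeded *En1* 20.3-fold in ES cells and 3.08-fold in forebrain. As a share of the summed RPKM of the pair, *En1* held 4.69% in ES cells (1.91 to 9.35%) and 24.5% in forebrain (18.4 to 32.1%), and these intervals do not overlap. *En2* (ENSMUSG00000039095) lies on chromosome 5, 28492236 to 28500152, on the plus strand.

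The nearest listed gene 3′ of *En2* is *Cnpy1*, at a distance of 27206 bases and on the opposite strand. It encodes a regulator of FGF signaling that is known from the midbrain and hindbrain boundary. *Cnpy1* had an RPKM of 509.84 in ES cells (2442 reads) and of 28.28 in forebrain (202 reads). Its level was 18.0-fold higher in ES cells (15.6 to 20.9), the same direction as *En2* but far larger. *Insig1*, on the other side of *En2* at 87034 bases, had 1000.4 in ES cells and 1425.44 in forebrain.

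*Egr2* had similar low values in both samples. The RPKM was 10.78 in ES cells (7.28 to 15.4, 30 reads) and 9.24 in forebrain (6.48 to 12.6, 38 reads), with a ratio of forebrain over ES cells of 0.857 (0.513 to 1.42). It lay at percentiles 34.6 and 31.8 of the listed genes. *Egr2* (ENSMUSG00000037868) lies on chromosome 10, 66998223 to 67004936, on the plus strand, with 3398 exonic bases. Of its relatives, the immediate early gene *Egr1* had 79.36 in ES cells and 25.63 in forebrain, 3.10-fold higher in ES cells (2.41 to 3.98). *Egr3* and *Egr4* had 0 reads in ES cells and 1 read each in forebrain. *Egr2* thus lay below *Egr1* and above *Egr3* and *Egr4* in both samples.

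*Phox2a* had the highest level of the 6 genes in forebrain. Its RPKM was 90.57 in ES cells (76.8 to 106.2, 152 reads) and 143.51 in forebrain (129.1 to 159.2, 359 reads). The ratio of forebrain over ES cells was 1.58 (1.31 to 1.93), short of 2-fold. *Phox2a* (ENSMUSG00000007946) lies on chromosome 7, 108966827 to 108971680, on the plus strand, with 2049 exonic bases in 3 blocks.

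The value of *Phox2a* cannot be separated from that of an overlapping gene. The 3′ end of *Phox2a* shares 534 exonic bases, 26.1% of its exonic length, with the last exon of *Inppl1*, which encodes an inositol phosphatase and lies on the opposite strand. *Inppl1* had an RPKM of 681.6 in ES cells and 1036.04 in forebrain, a ratio of 1.52 compared with 1.58 for *Phox2a*. At its mean density of reads, *Inppl1* would place 298 reads on the shared bases in ES cells and 675 in forebrain. These numbers exceed all the reads counted for *Phox2a*, 152 and 359. The split of reads along the gene was not tested, as the tables give a single value per gene.

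The libraries were strand-specific, but the values per gene did not keep the strands apart. At least 95% of the exonic bases of 175 listed genes lie inside exons of a single gene on the opposite strand. Where the host had an RPKM of at least 100 (103 genes in ES cells and 121 in forebrain), none of the enclosed genes was at 0. Their median value was 1.13 times that of the host in both samples (25 to 75% range 0.659 to 2.29 in ES cells and 0.596 to 2.36 in forebrain). Values of overlapping genes therefore have to be read together.

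*Gbx2* is also affected, in the other direction. *D130058E05Rik*, on the opposite strand, lies with all its 1372 exonic bases inside the longer exon of *Gbx2*. It had an RPKM of 270.51 in ES cells (304 reads) and 9.55 in forebrain (16 reads), 28.3-fold higher in ES cells. Its density in ES cells was 221.5 reads per kb, below the 376.6 reads per kb of *Gbx2*. It covers 32.4% of the exonic bases of *Gbx2*, and its 304 reads are fewer than the 1597 of *Gbx2*. No exonic base of *En1*, *En2*, *Gbx1* or *Egr2* is shared with another gene. Windows of 50 bases from the exons were found again elsewhere in NCBIM37 for *En2* alone (12 of 4885 windows), and for 0 of 3830 windows of *En1*.

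**Figure D2:**
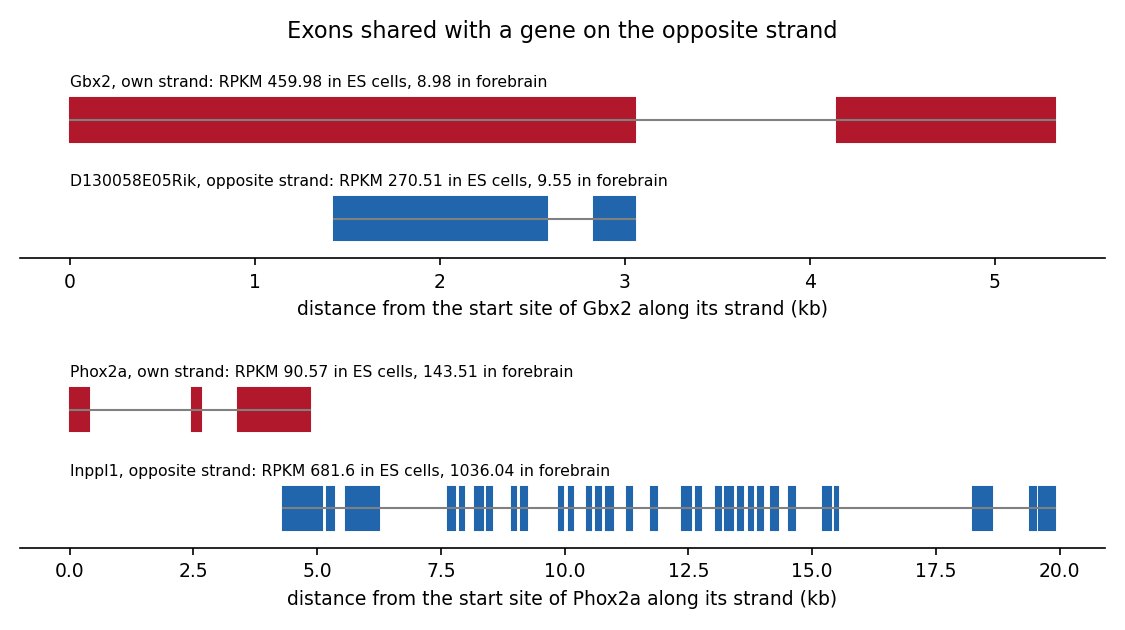
Exons (boxes) of *Gbx2* and *Phox2a* (red) and of the gene on the opposite strand (blue), along the distance in kb from the start site of the red gene. *D130058E05Rik* lies wholly within an exon of *Gbx2*, and the last exon of *Phox2a* overlaps *Inppl1* by 534 bases.

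Genes next to the other members differed in level by orders of magnitude. *Agap3* ends 709 bases from the 3′ end of *Gbx1* on the opposite strand and had an RPKM of 518.59 in ES cells and 985.54 in forebrain. *Ado* ends 2323 bases from the 3′ end of *Egr2* and had 606.18 and 714.77. The genes on either side of *En1*, *C1ql2* and *B230209K01Rik*, lie 259246 and 478108 bases away, with 0 and 2.69 in ES cells and 0.41 and 2.4 in forebrain. A part of the low values of *Gbx1* and *Egr2* in transcripts that run past the end of these abundant neighbours was not tested.

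Ordered by level, *Gbx2*, *Phox2a*, *En2*, *Egr2*, *Gbx1* and *En1* followed each other in ES cells. Only the counting intervals of *Egr2* and *Gbx1* overlapped between neighbours in this order. In forebrain the order was *Phox2a*, *En2*, *Egr2*, *Gbx2*, *Gbx1* and *En1*, and the last 4 genes, from 9.24 to 8.03, had overlapping intervals between neighbours. The highest and lowest member were 211-fold apart in ES cells and 17.9-fold apart in forebrain. *Gbx2* and *Phox2a* alone exceeded the median RPKM of the listed genes in ES cells (48.94), and *Phox2a* alone did so in forebrain (62.37). The summed RPKM of the 6 genes was 616.1 in ES cells, of which *Gbx2* held 74.7%, and 202.6 in forebrain, of which *Phox2a* held 70.8%. Without *Gbx2* the sum in ES cells was 156.1, and without *Phox2a* the sum in forebrain was 59.1. The place of *Phox2a* in these orders, medians, spreads and sums rests on a value that cannot be separated from that of *Inppl1*. It is therefore not a measure of *Phox2a* transcript alone.

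**Figure D3:**
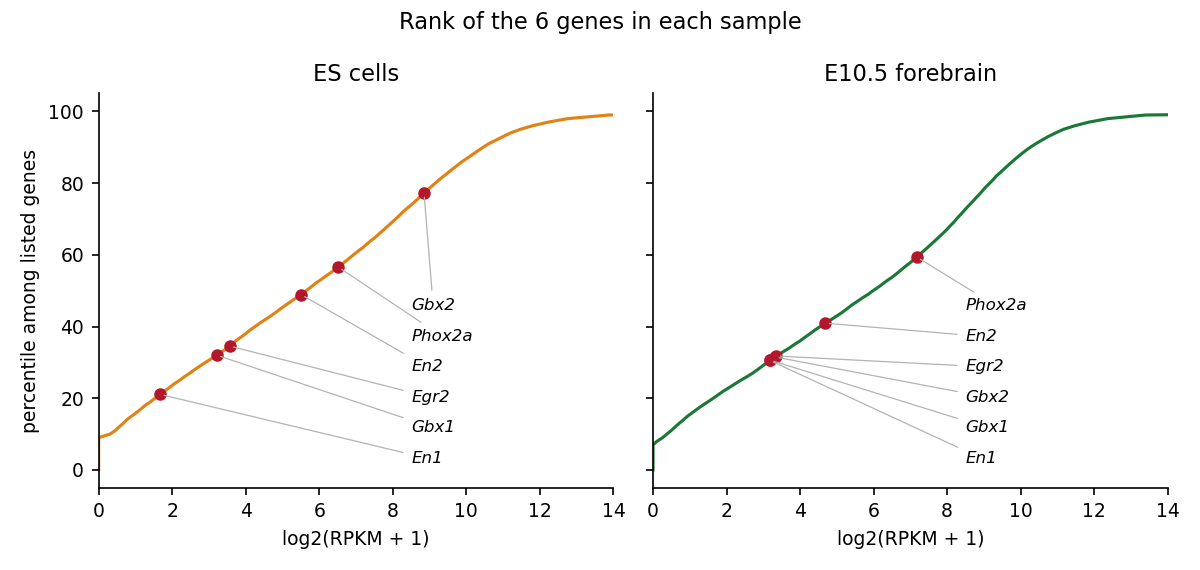
Percentile among the 29311 listed genes against log2(RPKM + 1), with all listed genes as a line and the 6 genes as red points, for ES cells (left) and E10.5 forebrain (right). *Gbx2* is at percentile 77.2 in ES cells and 31.5 in forebrain, whereas *En1*, *Gbx1* and *Egr2* stay below percentile 35 in both samples.

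On log2(RPKM + 1), 1 of the 6 genes (16.7%) was at least 2-fold higher in forebrain and 1 (16.7%) at least 2-fold higher in ES cells. Over all listed genes these shares were 25.8% and 23.3%, so that the counts do not stand out. The median log2 ratio was -0.12 for the 6 genes and 0.01 over all listed genes. With 1 sample per group, these are descriptions without a test.

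Other genes of the isthmic organizer mostly had higher values in forebrain. Of 10 genes, 7 were at least 2-fold higher in forebrain and 2 in ES cells (*Cnpy1* and *Pax8*), with a median log2 ratio of 2.50. *Otx2*, the rostral counterpart of *Gbx2*, had an RPKM of 78.53 in ES cells and 989.44 in forebrain, 12.6-fold higher in forebrain (11.01 to 14.5). *Gbx2* therefore exceeded *Otx2* in ES cells, and *Otx2* exceeded *Gbx2* in forebrain. *Fgf8*, the main signal of the organizer and also of the rostral forebrain, had 0 reads in ES cells. Its RPKM in forebrain was 83.73 from 138 reads, 30.9-fold above a floor of 3 reads in ES cells. The exact interval of this ratio of forebrain over ES cells starts at 24.8. *Wnt1* had 0 and 7.19 (21 reads), 4.69-fold above the same floor, with an exact interval of the ratio that starts at 3.49. *Pax2* and *Pax5*, which act with the Engrailed genes, had 0 and 3.39 and 0.36 and 8.97, respectively. In forebrain, *Pax5* lay within the counting interval of *En1* and *Pax2* below it. *Lmx1b* had 0.76 and 41.35.

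Genes of hindbrain segments were mostly lower in forebrain. Of 14 genes, 13 were listed, of which 8 were at least 2-fold higher in ES cells, with a median log2 ratio of -1.06. *Hoxb1* and *Hoxa2*, markers of the fourth and the second rhombomere, had 0 reads in forebrain, where 3 reads correspond to 1.06 and 1.01. *Egr2* was thus found in forebrain with 38 reads beside hindbrain *Hox* genes at 0 to 4 reads. The median RPKM of the list in forebrain was 0.99. Scaled by the inferred reads on genes and with a pseudocount of 1, no gene of this list was past 2-fold in either direction.

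Midbrain genes mostly had higher values in the forebrain sample than in ES cells. Of 10 genes, 9 were at least 2-fold higher in forebrain and 0 in ES cells, with a median log2 ratio of 3.64. *Tal2*, required for GABAergic neurons of the midbrain, had an RPKM of 3.29 in ES cells and 249.37 in forebrain. *Lmx1a*, a dorsal midline and dopaminergic factor, had 1.08 and 173.69, and *Pax7*, a dorsal neural tube factor, had 0.21 and 134.77. *Helt* had 0 and 22.48 (42 reads), 9.39-fold above a floor of 3 reads in ES cells, with an exact interval of the ratio that starts at 7.31. Several of these genes are also expressed in the caudal forebrain. *Pou4f1* had 39.86 and 43.93, under 2-fold, and *Pitx3* had 0 in ES cells and 1.56 from only 3 reads in forebrain. *En1* (8.03) and *En2* (24.74) lay below the median of this list in forebrain, 42.1.

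Genes of visceral motor and noradrenergic neurons, the cells of *Phox2a*, were divided. Of 10 genes, 9 were listed, of which 5 were at least 2-fold higher in forebrain and 2 in ES cells (*Tbx20* and *Prph*). *Isl1* had 3.38 in ES cells and 155.16 in forebrain, and *Th* had 12.14 and 102.39, both also known from the forebrain. *Dbh*, the enzyme that makes noradrenaline, had 0 reads and 2 reads, and *Hand2* 1 read and 2 reads. *Gata3* had 0.92 and 41.08 (199 reads), and *Ret* had 6.9 and 26.76 (240 reads).

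**Figure D4:**
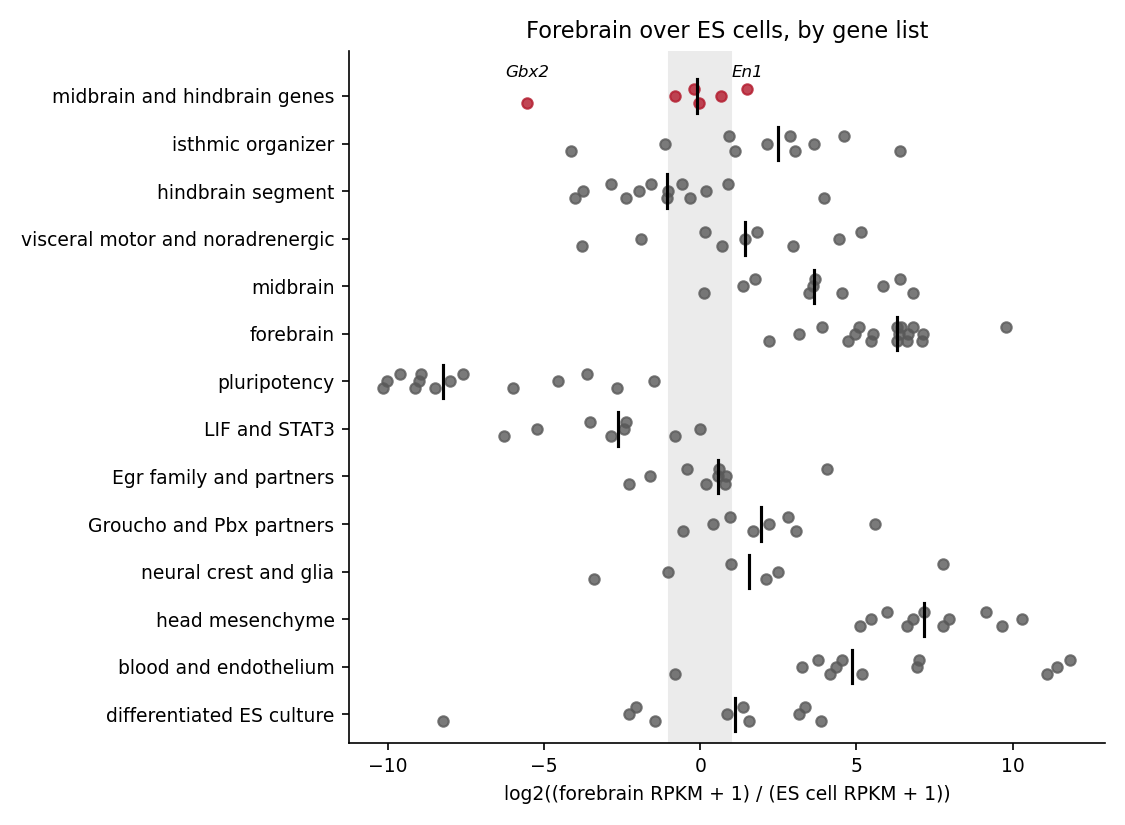
Log2 ratio of forebrain over ES cells on RPKM + 1 for the 6 genes (red) and for the genes of each list (grey), with the median of each as a bar and differences under 2-fold shaded. The 6 genes spread from -5.53 (*Gbx2*) to 1.51 (*En1*), whereas all 18 forebrain genes lie to the right and all 14 pluripotency genes to the left.

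Markers of the labelled cell types were checked in both samples. All 18 forebrain genes were at least 2-fold higher in forebrain, with a median RPKM of 0.705 in ES cells and 144.0 in forebrain. All 14 pluripotency genes were at least 2-fold higher in ES cells, with medians of 2253 and 22.5. The forebrain sample also held other cells. All 11 head mesenchyme genes were at least 2-fold higher there, with a summed RPKM of 62.9 in ES cells and 19360 in forebrain, and 11 of 12 blood and endothelial genes, with sums of 991.7 and 677800. Of the 6 listed neural crest and glia genes, 3 were at least 2-fold higher in forebrain and 2 in ES cells. Among these, *Sox10*, a neural crest and glial factor, had 9.9 and 20.68. In ES cells, *T*, a primitive streak gene, had 1112.09, whereas 8 of the other 9 genes of differentiated cultures were below 10. The part of these cells in the values of the 6 genes was not tested.

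The scaling changed the size of the ratios more than their direction. Divided by the sum of each sample, the log2 ratio was 1.72 for *En1*, -0.55 for *En2* and -5.27 for *Gbx2*. Values of *Gbx1* and *Egr2* then lay at 0.21 and 0.05, so that the sign of these small ratios turned with the scaling. *Phox2a* remained under 2-fold, at 0.93. The ratio of *Gbx2* lay between -5.66 and -3.05 under the scalings, pseudocounts and filter that were tried.

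**Figure D5:**
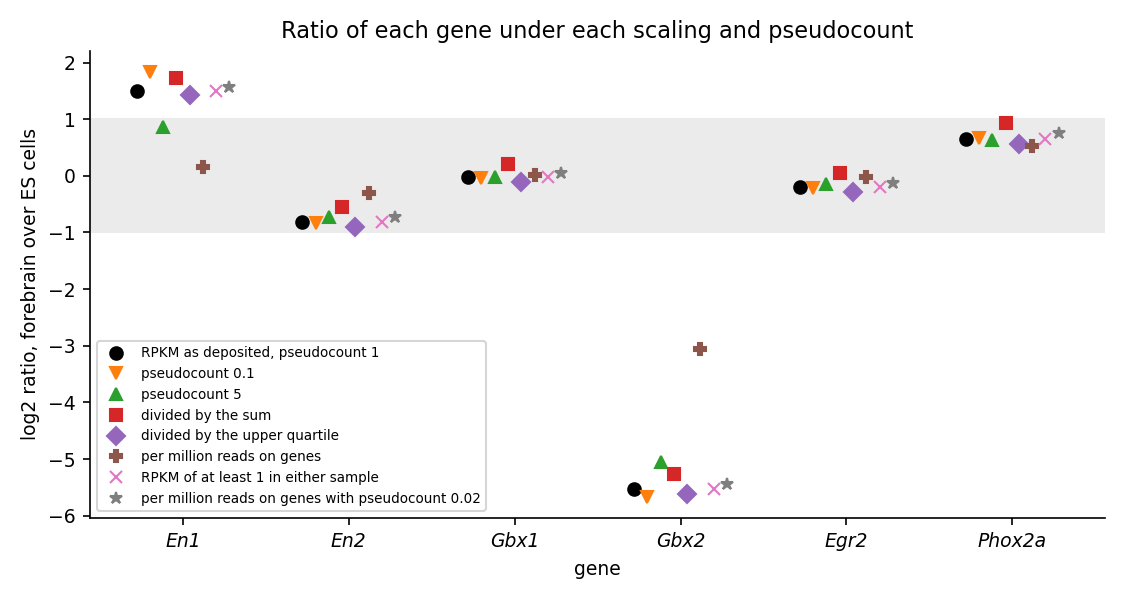
Log2 ratio of forebrain over ES cells for the 6 genes under each scaling and pseudocount, with differences under 2-fold shaded. *Gbx2* stays between -5.66 and -3.05, *En1* drops below 2-fold with a pseudocount of 5 (0.86) and when scaled by inferred reads on genes with a pseudocount of 1 (0.16, brown crosses), and the other 4 genes are under 2-fold throughout.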

How the data were processed

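Gene expression had been measured by strand-specific RNA-seq in 1 ES cell and 1 E10.5 forebrain sample. The authors deposited 1 value per gene, called RPKM, for NCBIM37 gene annotation. Bowtie 0.12.7 is named in the submitters' processing notes. The tables hold no counts, so that a count test was not used. Reads were inferred as RPKM times exonic kb divided by the step of low values, and rounded. Among low values, 59.9% of 6928 in ES cells and 61.1% of 6624 in forebrain lay within 0.05 of a whole read, which limits these numbers. Ratios were taken on log2(RPKM + 1), which understates differences of low genes, and "2-fold" refers to that scale. With 1 sample per group no test was performed. The members and gene lists were chosen with earlier results of these data known. All members were named. From each list, the rule took the 2 genes with the highest RPKM in each sample and the gene with the largest log2 ratio in each direction, besides neighbouring and overlapping genes, the 3 list genes closest to each member and the *Egr2* paralogs *Egr1*, *Egr3* and *Egr4*. Not every gene that met the rule was described, and some genes are not reported here. *Wnt1*, *Pax2*, *Pax5*, *Pax8*, *Lmx1b*, *Hoxb1*, *Hoxa2*, *Helt*, *Pitx3*, *Dbh*, *Hand2*, *Gata3*, *Ret* and *Stat3* fall outside it and were chosen after their values were seen. Symbols with several identifiers used the one with the larger summed RPKM. The scripts were tested on simulated data. The alternatives were other pseudocounts, scalings, a filter on low values, leaving out single members and the restriction to protein-coding genes.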

Additional observations from a re-analysis of the deposited data

How the results depend on the processing

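Of 288 alternative values, 239 stayed within the limits set for them, 49 moved and 0 changed sign past 2-fold. The setting that moved the most values was RPKM recomputed from the inferred reads on genes with a pseudocount of 1, where the unit is 49.0 to 52.2-fold smaller relative to the pseudocount. There the log2 ratio was 0.16 for *En1*, -0.30 for *En2* and -3.05 for *Gbx2*, and 0 members were past 2-fold toward forebrain. Genes past 2-fold toward forebrain and toward ES cells then numbered 2 and 1 for the isthmic organizer, 0 and 0 for hindbrain segments, 2 and 1 for visceral motor and noradrenergic genes, 0 and 1 for the Egr family, 1 and 1 for neural crest and glia, 2 and 1 for differentiated ES cultures, and 3370 and 2394 over all listed genes, with 4 midbrain genes toward forebrain. With a pseudocount of 0.02 on that scale, chosen after seeing the data, *En1* was at 1.57 and *Gbx2* at -5.44, and 1 neural crest and glia gene was past 2-fold toward ES cells. With a pseudocount of 5, *Gbx2* was at -5.06, 0 members were past 2-fold toward forebrain, and 1 isthmic, 5 hindbrain and 2 differentiated culture genes toward ES cells. With 0.1, 2 hindbrain and 3 Egr family genes were past 2-fold toward forebrain. Divided by the sum, 2 hindbrain and 2 Egr family genes were so toward forebrain, and 1 isthmic and 1 neural crest gene toward ES cells. The summed RPKM in ES cells was 571.8 without *En2*, 156.1 without *Gbx2* and 525.5 without *Phox2a*, and in forebrain 177.8 without *En2* and 59.07 without *Phox2a*. Among protein-coding genes alone, percentiles in ES cells were 44.05 for *En2*, 75.05 for *Gbx2* and 51.37 for *Phox2a*, and in forebrain 25.81 for *En1*, 34.01 for *En2*, 25.85 for *Gbx1*, 26.56 for *Gbx2*, 26.77 for *Egr2* and 52.03 for *Phox2a*. The share of promoters with as many CpG was then 33.6% for *En1*, 24% for *Gbx2* and 18% for *Phox2a*. For the 5 promoters of *Egr2* it ranged from 14.7% to 51.7%. Beyond the construction of each alternative, the cause was not tested. No paired analysis was possible because each group holds 1 sample. With 7 to 46 reads behind *En1*, *Gbx1*, *Egr2* and the forebrain value of *Gbx2*, small differences among them were not detectable at this depth.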

Other observations

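Partners of the Engrailed proteins were more abundant than the Engrailed transcripts. Of 8 Groucho and Pbx genes, whose products act with Engrailed as corepressors and DNA-binding cofactors, 5 were at least 2-fold higher in forebrain and 0 in ES cells, with median RPKM of 190.6 in ES cells and 614.5 in forebrain. Of 8 listed LIF and STAT3 genes, the pathway of which *Gbx2* is a known target, 6 were at least 2-fold higher in ES cells and 0 in forebrain. *Stat3* had 1120.81 and 216.27, and *Socs3* 1992.41 and 171.69. *Il6st* (932.94 and 922.68) and *Pim1* (1270.71 and 719.68) were under 2-fold. *Klf5*, a pluripotency factor, was the gene of the lists closest to *Gbx2* by the summed difference of log2(RPKM + 1) over both samples (0.753), with an RPKM of 484.87 in ES cells and 5.24 in forebrain. By the same measure, over only 2 samples, *Fgf17* was closest to *Phox2a* (0.252), whose value cannot be separated from that of *Inppl1*. *Egr1* was closest to *En2* (0.874), *Cyp26c1* to *En1* (0.703), *Fgf18* to *Gbx1* (1.43) and *Sox10* to *Egr2* (1.19). Of the Egr family and its partners, 1 of 9 genes was at least 2-fold higher in forebrain and 2 in ES cells, which does not stand out from the 25.8% and 23.3% of all listed genes.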
